A study of Capra hircus with 6 samples.

Results

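In the skin of goat fetuses, 27 of 27947 mRNA transcripts (0.0966%) were at least 2-fold higher in white than in dark skin in every library. The members were chosen by their FPKM (fragments per kilobase of transcript, scaled to sequencing depth): the lowest of the 3 white skin libraries had to reach 1 FPKM and to be at least 2 times the highest of the 3 dark skin libraries. The same comparison chose them, so their levels in dark and white skin are given as a description, and no test of them is used as support. The mirrored rule, with the groups exchanged, found 21 transcripts (0.0751%). Among the 27, 11 had a gene symbol in the RefSeq genes of assembly ARS1.2 (40.7%, against 34% of all mRNA transcripts), and 16 are given by their RefSeq accession.

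The dark skin group was the Youzhou dark-skin goat, in which skin and mucosa are dark under a coat that is mostly white. The white skin group was the Yudong white goat, which lacks dark colour in both skin and coat. Fetuses of 3 ewes of each breed were taken at day 100 of gestation, and each breed has 3 libraries (replicates 1 to 3 of dark skin, replicates 4 to 6 of white skin). Skin colour and breed are the same contrast here and cannot be told apart. The samples came from the back and the belly, and which site or fetus a library represents is not given in the sources used here. Values of single libraries are listed below in the order of the replicate numbers.

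The tables hold FPKM and no counts. At low values the FPKM of many transcripts sat at whole multiples of 1 step, as in white skin replicate 4, where 26 transcripts stood at 0.0546, 20 at 2 times and 16 at 3 times this value. Over the 6 libraries the commonest step lay between 0.0502 and 0.0601, so that 1 FPKM was worth 16.6 to 19.9 steps for transcripts of that length, and the depth behind a transcript of another length is unknown. Summed FPKM of the marker lists was 2465 to 3506 for fibroblasts and 594 to 1089 for keratinocytes in the 6 libraries. Only part of each list had a matched transcript, with 7 fibroblast, 6 keratinocyte and 7 melanocyte genes. TYR, TYRP1 and PMEL of the melanocyte list had none, and the sums are not a measure of cell content. The melanocyte list summed to between 79.5 and 98.8 in dark and between 54.5 and 73.8 in white skin. Of its 7 transcripts, DCT, an enzyme of melanin synthesis, and SLC45A2 were higher in each dark than in each white library. This held for 7.65% of all mRNA transcripts whose mean reached 0.1 FPKM. OCA2, SLC24A5, EDNRB, MITF and MLANA overlapped between the groups, and EDNRB was the largest part of the sum in each library. Skeletal muscle markers summed to 9.01, 9.75 and 57.7 FPKM in dark skin, and to 597, 199 and 6.69 FPKM in white skin. The part of muscle content in the members' differences was not tested.

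Fetal skin is a mixture of epidermis, dermis, vessels and blood, with fat cells forming below the dermis. Fat cells store triglyceride in lipid droplets and release glycerol and fatty acids from it, and red cell precursors make haem and globin chains. One gene can also give several transcripts through alternative starts and splicing. In a table of single transcripts a member can therefore belong to a gene whose total level is alike in the groups.

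**Figure D1:**
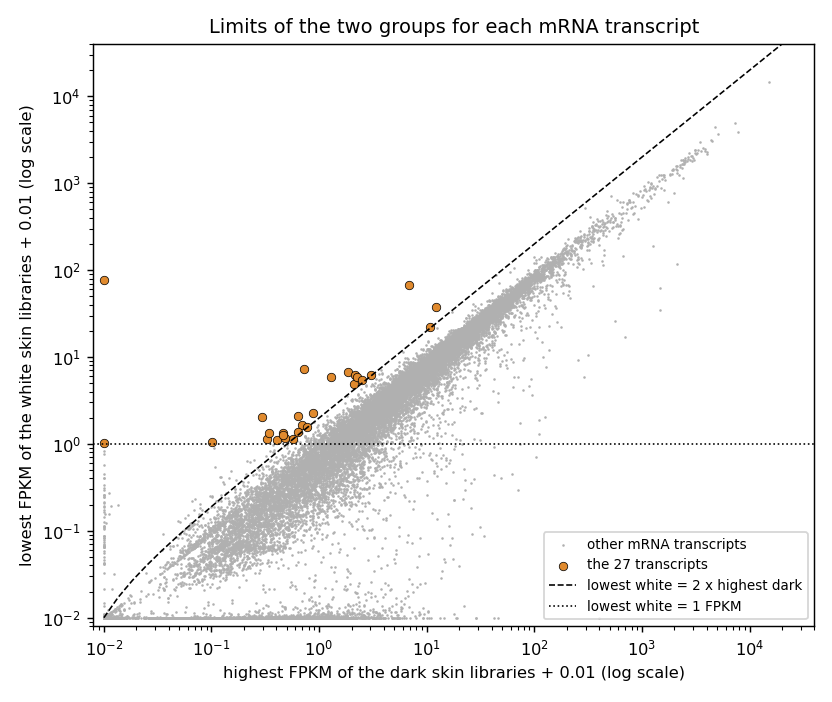
Lowest FPKM of the white skin libraries (vertical axis) against the highest FPKM of the dark skin libraries (horizontal axis) for each mRNA transcript, both with 0.01 added and on log scales. The 27 transcripts (orange) lie above both lines of the rule. The pair at the left edge had an FPKM of 0 in all dark skin libraries, and most of the others lie close to the 2-fold line.

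Most of the 27 were of moderate level in white skin. Their mean FPKM in white skin ranged from 1.13 to 104 with a median of 3.81, against a median of 4.44 over the 23090 mRNA transcripts whose mean reached 0.1 FPKM. In dark skin the median of their means was 0.451, against 4.31 over the same transcripts. In white skin 7 members had a mean under 2 FPKM, 14 between 2 and 10, and 6 of at least 10. In 17 of the 27 all dark values were below 1 FPKM. The lowest white value was at least 3 times the highest dark value in 10 members and between 2 and 3 times in 15, and the other 2 were listed at 0 in dark skin.

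**Figure D2:**
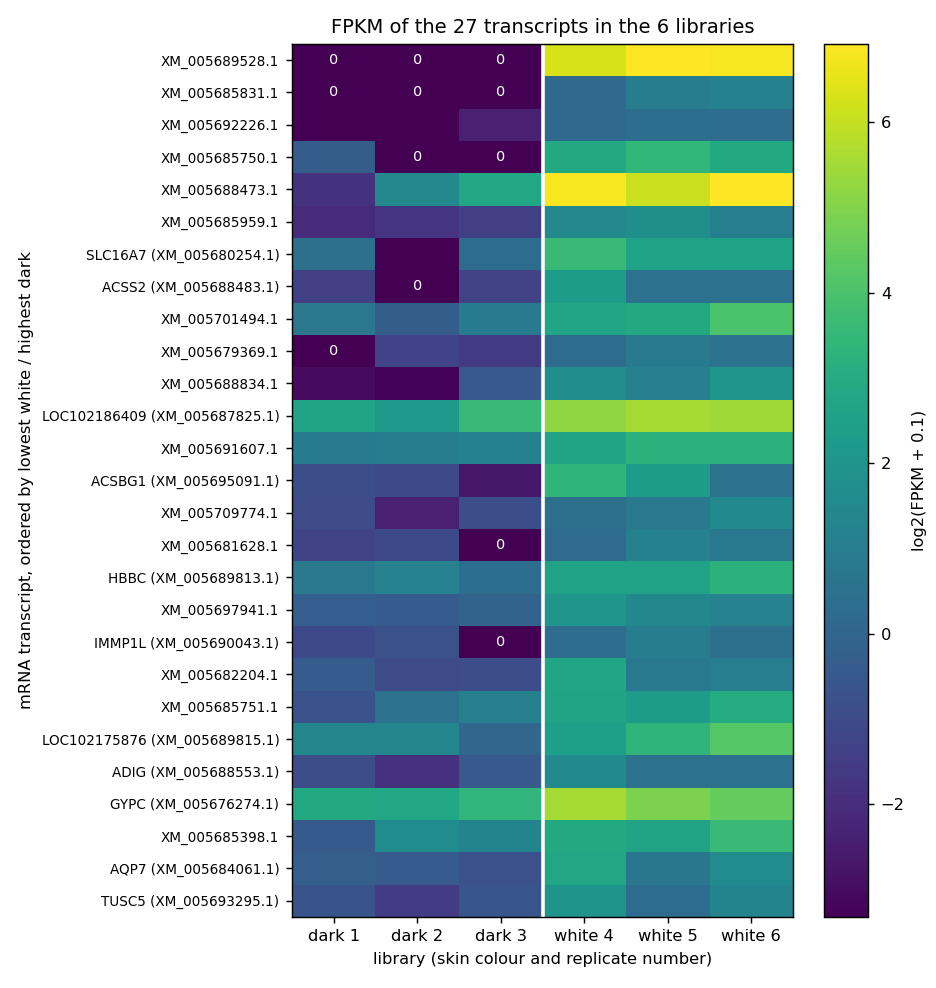
FPKM of the 27 transcripts (one per line, ordered by the ratio of the lowest white to the highest dark value) in the 6 libraries, as log2(FPKM + 0.1) from dark blue (low) to yellow (high), with a 0 printed where the table lists 0. Only XM_005689528.1 and XM_005685831.1 carry a 0 in all 3 dark skin libraries.

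The members listed at 0 in dark skin differed widely in level. XM_005689528.1, which has no symbol in the table used here, was listed at 0 in dark skin and stood at 77.8, 120 and 113 FPKM in white skin. It had the highest mean of all members in white skin, 104 ± 22.7 FPKM (SD, n = 3). XM_005685831.1 was likewise listed at 0 in the dark skin libraries and had 1.02, 1.92 and 2.14 FPKM in white skin. These values were 1, 2 and 2 times those of XM_005702126.1, a transcript also at 0 in dark skin that missed the rule with a lowest white value of 0.962 FPKM. How many fragments lie behind these values was not determined. Among all mRNA transcripts, 1549 were listed at 0 in all dark skin libraries. Of these, 66 were above 0 in all white skin libraries and 2, the members named here, reached 1 FPKM in each. In the opposite direction 1477 transcripts were listed at 0 in all white skin libraries, of which 42 were above 0 and 2 reached 1 FPKM in each dark skin library.

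A further 5 members were listed at 0 in some of the dark skin libraries. XM_005685750.1 was at 0.713, 0 and 0 FPKM in dark skin and at 7.29, 10.9 and 7.37 FPKM in white skin, 10.2 times between the nearest values. The other 4, each at 0 in 1 dark skin library, were XM_005679369.1, XM_005681628.1 and transcripts of ACSS2 and IMMP1L. An FPKM of 0 is the authors' estimate for that transcript and library and does not show that the gene was silent, since another transcript of the gene can hold its fragments.

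Among the other members without a symbol, XM_005688473.1 stood out in level. It had 0.181, 2.72 and 6.78 FPKM in dark skin and 113, 67.7 and 121 FPKM in white skin. Its dark values spread widely among themselves, with the lowest in replicate 1, yet the lowest white value was 9.99 times the highest dark value. XM_005692226.1 was at 0.000344, 0.00235 and 0.0921 FPKM in dark skin and 1.03, 1.19 and 1.18 FPKM in white skin, 11.2 times between the nearest values and with the tightest spread of all members in white skin.

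XM_005685959.1 had 0.207 ± 0.0742 FPKM in dark and 2.70 ± 0.629 FPKM in white skin (SD, n = 3 each). XM_005701494.1 had 1.38 ± 0.582 FPKM in dark and 10.1 ± 5.30 FPKM in white skin (SD, n = 3 each). XM_005685751.1, whose accession follows that of XM_005685750.1, was at 0.50, 1.33 and 2.08 FPKM in dark and 6.23, 4.94 and 8.08 FPKM in white skin. Whether these 2 accessions belong to one gene is not given in the sources used here.

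XM_005691607.1 had 1.95 ± 0.186 FPKM in dark and 8.39 ± 1.87 FPKM in white skin, and XM_005685398.1 had 2.0 ± 1.23 and 8.53 ± 3.06 FPKM (SD, n = 3 each). The 6 remaining members without a symbol, XM_005679369.1, XM_005688834.1, XM_005709774.1, XM_005681628.1, XM_005697941.1 and XM_005682204.1, had means of 0.184 to 0.766 FPKM in dark and of 1.42 to 3.34 FPKM in white skin. Their nearest values differed by 2.40 to 3.48 times. XM_005682204.1 had its highest value in white skin replicate 4, and the ratio of its group means was 6.49 with this library and 3.54 without it.

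ADIG, AQP7 and TUSC5 are described together because of their known roles in fat cells, a grouping made after their values were seen. The fat cell marker list holds 0 members. ADIG encodes adipogenin, a small membrane protein of differentiating adipocytes. It had 0.434, 0.175 and 0.632 FPKM in dark skin and 2.85, 1.37 and 1.35 FPKM in white skin. The mean in white skin was 4.49 times that in dark skin, and 3.29 times without white skin replicate 4.

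AQP7 encodes an aquaglyceroporin, the channel through which fat cells release glycerol. Its member transcript XM_005684061.1 had 0.758, 0.669 and 0.481 FPKM in dark skin and 6.94, 1.53 and 2.94 FPKM in white skin. The ratio of the means was 5.98, and 3.52 without white skin replicate 4, which stood far above the other white skin libraries. The second AQP7 transcript, XM_005684062.1, overlapped between the groups, with 1.33 FPKM in dark skin replicate 1 and 0.947 FPKM in white skin replicate 5.

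TUSC5 encodes a membrane protein of fat cells that takes part in the trafficking of the glucose transporter GLUT4. It had 0.536, 0.256 and 0.561 FPKM in dark skin and 3.88, 1.13 and 2.36 FPKM in white skin. It lay nearest to the limit of the rule, at 2.01 times between the nearest values. White skin replicate 4 was the highest library for all 3 of these transcripts.

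Established fat cell markers, which are not members, gave the following values. ADIPOQ, the hormone adiponectin, had 8.89, 3.82 and 5.45 FPKM in dark skin and 65.4, 12.3 and 25.3 FPKM in white skin, without overlap. CIDEC, a protein of lipid droplets, had 3.30, 0.683 and 1.74 FPKM in dark skin and 13.6, 2.91 and 8.25 FPKM in white skin, with white skin replicate 5 below dark skin replicate 1, and its second transcript was at 0 in all libraries. These were the only genes of the fat cell list with a matched transcript. The list summed to between 4.51 and 12.2 FPKM in dark skin and to 79.0, 15.2 and 33.5 FPKM in white skin. Both transcripts had an unadjusted p under 0.05 in the limma fit across all mRNA transcripts, and neither passed after Benjamini-Hochberg adjustment (smallest adjusted p = 0.472). Of all transcripts tested, 3.8% were higher in white skin and 4.48% lower at an unadjusted p under 0.05. Among all transcripts tested, 7.06% did not overlap between the groups and were higher in white skin. The part of fat cell content in the members' differences was not tested, and more fat cells and more RNA per fat cell cannot be told apart in these libraries.

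ACSS2 and ACSBG1 both encode enzymes that join acids to coenzyme A, and they too were put side by side after their values were seen. ACSS2, the cytosolic acetyl-CoA synthetase, makes acetyl-CoA from acetate for lipid synthesis and for acetylation. It had 0.283, 0 and 0.333 FPKM in dark skin and 4.78, 1.31 and 1.31 FPKM in white skin. The ratio of the means was 12, and 6.38 without white skin replicate 4, whose value was far above the nearly equal values of the other white skin libraries.

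ACSBG1, an acyl-CoA synthetase of long-chain fatty acids, was a member through its transcript XM_005695091.1. This transcript had 0.454, 0.399 and 0.0593 FPKM in dark skin and 10.3, 5.02 and 1.31 FPKM in white skin. It spread the most of all members in white skin, by 7.87 times, and the ratio of the means was 18.2 with and 10.4 without white skin replicate 4. SLC16A7 encodes a monocarboxylate transporter that carries lactate and pyruvate. Its member transcript XM_005680254.1 had 1.27, 0.000793 and 1.12 FPKM in dark skin and 11.8, 5.93 and 6.12 FPKM in white skin.

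The list of genes of lipid and cholesterol synthesis gave 33 tested transcripts of 17 genes. Of these transcripts, 5 were higher in white skin without overlap and 0 were lower, against 7.06% and 7.65% of all transcripts tested. The 5 belong to FDPS, SOAT1, MSMO1, MVK and NSDHL. For FDPS, MSMO1 and NSDHL a more abundant transcript of the same gene overlapped between the groups. The list holds 0 members. The median difference of the 33 transcripts was 0.22 on the log2(FPKM + 0.1) scale, white minus dark skin, against 0.01 over all transcripts tested. In limma 0 of the 33 passed (smallest adjusted p = 0.480), and 4 had an unadjusted p under 0.05, all higher in white skin, against 3.8% higher and 4.48% lower of all transcripts tested.

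**Figure D3:**
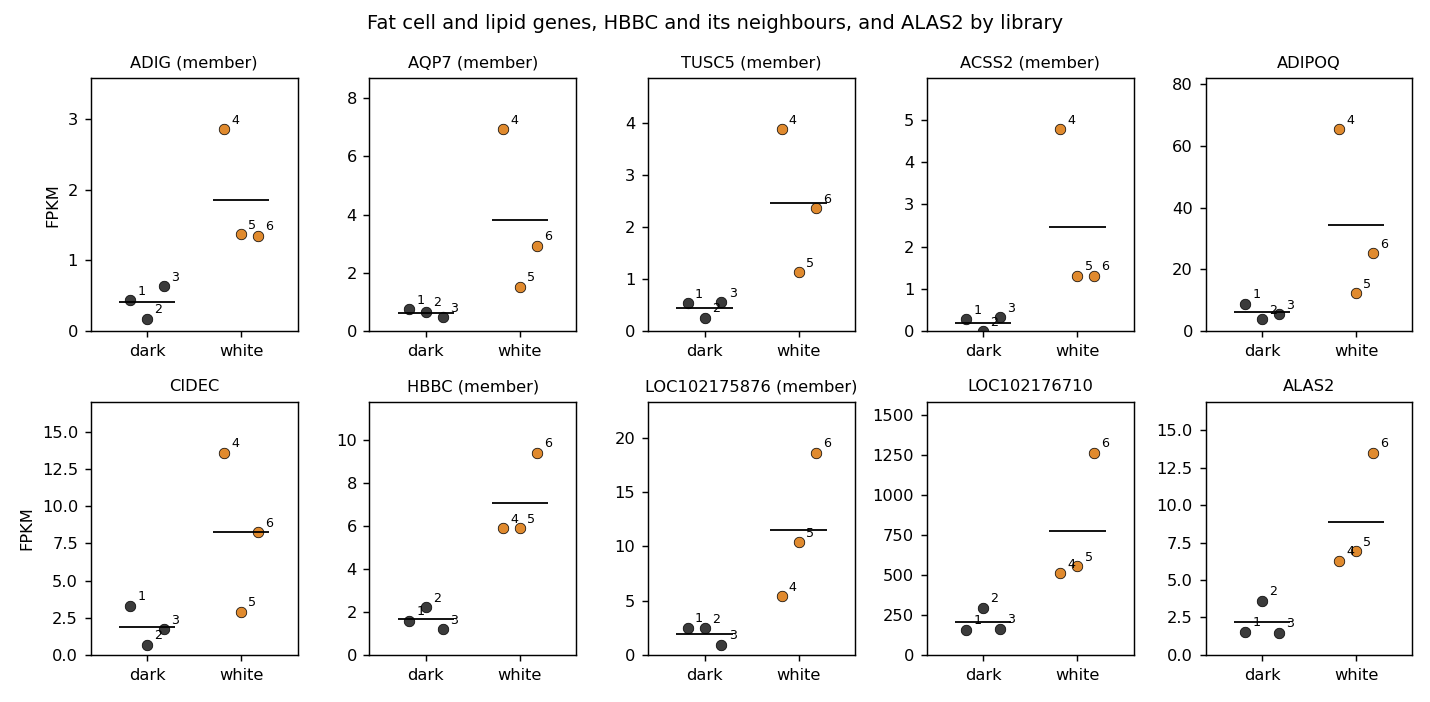
FPKM (vertical axis, from 0) of 4 member transcripts and 2 markers of fat cell and lipid genes, and of HBBC, LOC102175876, the neighbouring LOC102176710 and the red cell marker ALAS2, in dark and white skin. Each point is a library with its replicate number, and the bar is the mean of 3. White skin replicate 4 is the highest library for the fat cell and lipid genes and replicate 6 for the other 4.

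HBBC encodes a beta-globin chain of goat haemoglobin. The transcript had 1.6, 2.23 and 1.20 FPKM in dark skin and 5.91, 5.90 and 9.42 FPKM in white skin. LOC102175876 lies on the same chromosome with 3 protein-coding genes between it and HBBC in ARS1.2. It had 2.5, 2.47 and 0.940 FPKM in dark skin and 5.42, 10.4 and 18.6 FPKM in white skin. The gene table gives LOC102175876 no other name. In both, white skin replicate 6 was the highest library.

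LOC102176710, which is 2 genes from LOC102175876 in the same stretch, was far more abundant and fell outside the rule. It had 158, 295 and 163 FPKM in dark skin and 512, 557 and 1266 FPKM in white skin, 1.74 times between the nearest values. HBBC stood at 0.733% to 1.15% of the FPKM of LOC102176710 over the 6 libraries, and LOC102175876 at 0.575% to 1.87%. Beta-globin genes are close copies of each other, so the value of HBBC is uncertain. Whether LOC102175876 or LOC102176710 is such a copy is not given in the gene table, and shared fragments were not tested.

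Red cell markers gave the following values. ALAS2, the first enzyme of haem synthesis in red cell precursors, had 1.56, 3.63 and 1.48 FPKM in dark skin and 6.29, 6.92 and 13.5 FPKM in white skin in its main transcript. The red cell list summed to 2.13, 4.16 and 2.09 FPKM in dark skin and to 7.34, 8.23 and 15.6 FPKM in white skin, without overlap. Of its 4 transcripts whose mean reached 0.1 FPKM, 3 were higher in white skin without overlap (7.06% of all transcripts tested were), and 0 passed in limma (smallest adjusted p = 0.423, with 2 higher in white skin at an unadjusted p under 0.05, against 3.8% of all transcripts tested). These 3 were both ALAS2 transcripts and HEMGN, a nuclear protein of blood cell precursors at 0.210 to 0.642 FPKM in white skin, and ALAS2 made up most of the sum. EPB42 and RHAG, membrane proteins of red cells, overlapped between the groups. AHSP, the chaperone of alpha-globin, was below 0.001 FPKM in 5 libraries and at 0.412 FPKM in white skin replicate 5. The part of blood content in the values of HBBC and its neighbours was not tested.

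Several members were 1 transcript of a gene whose other transcripts did not follow. GYPC encodes glycophorin C, a membrane protein of red cells that other tissues also make. Its member transcript XM_005676274.1 had 7.43, 7.01 and 10.7 FPKM in dark skin and 46.7, 29.7 and 22.4 FPKM in white skin. The other transcript, XM_005676275.1, ran the opposite way, with 14.6, 25.3 and 24.3 FPKM in dark skin and 10.9, 8.09 and 6.90 FPKM in white skin. The member made up 28.7% of the summed FPKM of GYPC in dark and 78.7% in white skin on average. The sum itself overlapped between the groups, with 29.8 ± 6.80 FPKM in dark and 41.6 ± 14.5 FPKM in white skin (SD, n = 3 each).

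In SLC16A7 the member also took a larger part in white skin, but the other transcript did not run the opposite way. The other transcript, XM_005680253.1, had 6.92, 10.2 and 9.41 FPKM in dark skin and 8.57, 10.6 and 7.24 FPKM in white skin, which overlapped. The member held 15.5%, 0.00779% and 10.7% of the summed FPKM in dark skin, against 58.0%, 36.0% and 45.8% of it in white skin, with dark skin replicate 2 near 0. The sum was 9.64 ± 1.26 FPKM in dark and 16.7 ± 3.51 FPKM in white skin (SD, n = 3 each). The sums did not overlap and lay 1.27 times apart at the nearest values, so the gene as a whole did not meet the rule.

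For ACSBG1 the larger transcript, XM_005695090.1, had 2.84, 6.96 and 18.0 FPKM in dark skin and 18.6, 19.2 and 15.1 FPKM in white skin. The dark skin libraries differed among themselves by more than the white ones, and dark skin replicate 3 lay within the white values. IMMP1L, a subunit of the inner mitochondrial membrane peptidase, had 6 matched transcripts. Its member, XM_005690043.1, had 0.377, 0.475 and 0 FPKM in dark skin and 1.17, 1.86 and 1.29 FPKM in white skin. It made up 1.27%, 1.80% and 0% of the gene in dark skin, against 5.54%, 6.17% and 5.63% of it in white skin, and the summed FPKM of IMMP1L was 28.1 ± 1.58 in dark and 24.7 ± 4.71 in white skin (SD, n = 3 each), with overlap.

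**Figure D4:**
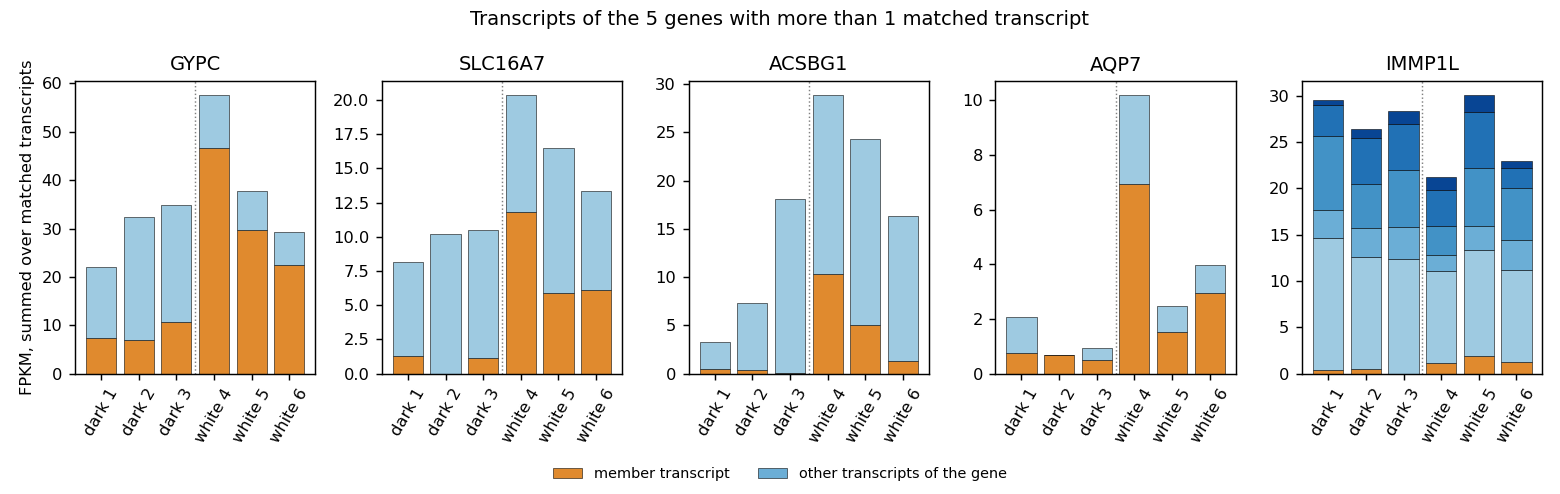
FPKM of each matched transcript (stacked, vertical axis from 0) of the 5 member genes with more than 1 matched transcript in the 6 libraries. The member transcript (orange) takes a larger part in white skin for GYPC, SLC16A7 and IMMP1L, while the whole bars of GYPC, ACSBG1 and IMMP1L overlap between the groups.

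With FPKM summed over the matched transcripts of each gene, 6 of the 11 member genes met the rule, and they were the only ones among all 7385 genes with a symbol. The 6 were ACSS2, ADIG, TUSC5, HBBC, LOC102175876 and LOC102186409, each with 1 matched transcript, while 0 of the 5 genes with several transcripts did. LOC102186409 had 6.17, 4.59 and 12.3 FPKM in dark skin and 37.6, 46.1 and 44.3 FPKM in white skin, with little spread among the white skin libraries.

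The spread within white skin was wide for many members. The highest white value was at least 2 times the lowest in 11 of the 27 members (40.7%), against 7.78% of the 15444 transcripts that reached 1 FPKM in each white skin library. The median of this ratio was 1.94 for the members and 1.28 for those transcripts, a difference that was not tested. White skin replicates 4, 5 and 6 were the highest in 9, 8 and 10 members. Replicate 4 was the highest in 7 of the 11 members with a symbol and in 2 of the 16 without, against 33.1% of those 15444 transcripts. In dark skin, replicate 3 was the highest in 14 of the 25 members with a value above 0, and in 38.3% of all transcripts tested that were above 0 in dark skin. Its summed FPKM over all mRNA transcripts was also the highest of the dark skin libraries, at 585344 against 535748 in replicate 1 and 506548 in replicate 2.

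The 2-fold limit cut through a continuous range. Just inside it were XM_005685398.1, AQP7 and TUSC5, at 2.06, 2.03 and 2.01 times between the nearest values. Just outside it was POSTN, the matrix protein periostin, at 1.99 times, with 42.5, 31.3 and 44.0 FPKM in dark skin and 99.1, 129 and 87.6 FPKM in white skin. XM_005679662.1 and XM_005694860.1 followed at 1.98 and 1.97 times. At the limit of 1 FPKM, XM_005681628.1, XM_005692226.1 and XM_005685831.1 were inside with lowest white values of 1.11, 1.03 and 1.02 FPKM. Outside it were XM_005702126.1 at 0.962, APOC2, an apolipoprotein that activates lipoprotein lipase, at 0.954, and XM_005684471.1 at 0.948 FPKM.

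Across all 23090 mRNA transcripts tested, limma gave an adjusted p under 0.05 to 1 transcript higher in white skin (0.00433%) and 1 lower (0.00433%), and 1913 had an unadjusted p under 0.05, of which 878 were higher (3.8%) and 1035 lower (4.48%). The higher one was the member XM_005689528.1, which the rule chose on the same libraries. The 21 gene lists of cell types and pathways held 0 transcripts that passed. SLC16A7, among the solute carriers, was the only member in any list. It is included in the counts of solute carrier transcripts higher in white skin given below, although the rule chose it on the same libraries. Of the 22 tested transcripts of the extracellular matrix, 7 were higher in white skin without overlap and 1 was lower, with a median difference of 0.14 on the log2(FPKM + 0.1) scale. At an unadjusted p under 0.05 in limma 6 were higher, of which 4 are transcripts of POSTN and the others belong to FMOD and PRELP, and 1 transcript of FN1, the matrix protein fibronectin, was lower. The smallest adjusted p in limma belonged to the lower one, FN1 XM_005676508.1 (adjusted p = 0.109), and was 0.162 among the higher ones, for POSTN XM_005687496.1. Endothelial markers were higher without overlap in 3 of 7 transcripts, which were KDR, PECAM1 and ERG, and interferon and antigen presentation genes in 4 of 14, with 0 lower in either list. Each of these lists had 3 transcripts at an unadjusted p under 0.05, all higher in white skin. In the other direction, 14 of 122 zinc finger transcripts and 4 of 57 ribosomal protein transcripts were lower in white skin without overlap, and 4 and 0 were higher. Over all transcripts, 7.06% were higher and 7.65% lower in white skin without overlap. The solute carriers had 8 higher and 9 lower without overlap of 115 tested, and Wnt signalling 2 higher and 1 lower of 14. Keratinocyte markers had 1 higher and 2 lower of 8, and Schwann cell and nerve markers 1 higher and 0 lower of 7. Lower without overlap were 2 of 7 melanocyte markers, 2 of 11 transcripts of TGF-beta and BMP signalling, 1 of 8 HOX transcripts and 1 of 11 leukocyte markers, with 0 higher in each. At an unadjusted p under 0.05, 1 zinc finger transcript was higher and 8 were lower, and 2 solute carrier transcripts were higher and 5 lower. The ribosomal protein, keratinocyte and TGF-beta and BMP lists had 0 higher and 2 lower each, the melanocyte and HOX lists 0 higher and 1 lower each, Wnt signalling 2 higher and 1 lower, and Schwann cell and nerve markers 1 higher and 0 lower. The other 6 lists had 0 in either direction. All tested transcripts overlapped for the fibroblast (5), hair follicle (1, of LEF1), skeletal muscle (5), melanogenesis (5) and respiratory chain (36) lists.

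In the table of lncRNAs from the same 6 libraries, 5 of 1336 transcripts (0.374%) met the same rule and 4 (0.299%) the mirrored one. TCONS_00053516, a lincRNA, was listed at 0 in all dark skin libraries and had 2.86, 1.34 and 2.08 FPKM in white skin. TCONS_00209522, also a lincRNA, was at 0 in dark skin and at 1.64, 1.07 and 1.17 FPKM in white skin. TCONS_00174633 had 0, 0.189 and 0.188 FPKM in dark and 1.93, 3.69 and 1.69 FPKM in white skin. The intronic lncRNA TCONS_00184653 and the lincRNA TCONS_00116317 had lowest white values of 1.28 and 1.04 FPKM. These lncRNAs share libraries with the mRNAs and are not independent of them.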

How the data were processed

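Total RNA was depleted of ribosomal RNA and made into strand-specific libraries, sequenced as paired-end reads. The authors aligned clean reads to the goat genome with TopHat2 2.0.9 and Bowtie2 2.0.6, assembled transcripts with Scripture and Cufflinks 2.1.1, and calculated FPKM per library with Cuffdiff 2.1.1. The submitters' processing notes also list Cuffdiff 2.2.2. The deposited FPKM values are normalized for length and library size, with library normalization not given in the sources used here, and 1 deposited column of the authors' mean FPKM in the lncRNA table was not used.

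The rule was applied to all 27947 mRNA transcripts. Accessions were matched to gene symbols without their version numbers (9497 matched), and positions in ARS1.2 served only for the order of neighbouring genes. Steps in low values were whole multiples within a relative tolerance of 2e-05. On the log2(FPKM + 0.1) scale, the mRNA transcripts whose mean reached 0.1 FPKM were compared between the groups with limma 3.58.1 (R 4.3.3, moderated variances with a mean trend). Its p-values are 2-sided and were adjusted by Benjamini-Hochberg, with a threshold of 0.05. This scale understates changes of low transcripts. Other values were calculated in Python 3.11.15.

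The members and lists were chosen with earlier results of these data known. Members with a symbol were named by rule, and markers, neighbours and other members were named after their values were seen. Alternatives were other floors, folds, pseudocounts, filters and scalings, sums per gene, and each library left out. P-values set the difference between the groups against the spread between these 3 libraries per breed, moderated across transcripts. Which fetuses or sites this spread reflects is not given in the sources used here.

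The lists were melanocytes, keratinocytes, hair follicle, fibroblasts, skeletal muscle, adipocytes, endothelium, red cells, leukocytes, Schwann cells and nerve, Wnt, melanogenesis, TGF-beta and BMP, matrix, HOX genes, ribosomal proteins, respiratory chain, interferon and antigen presentation, solute carriers, zinc finger proteins, and lipid and cholesterol synthesis.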

Additional observations from a re-analysis of the deposited data

How the results depend on the processing

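No paired analysis was made, because the groups are different breeds with fetuses of different ewes. The count of 27 transcripts followed the limits set: 44 and 15 with a floor of 0.5 and 2 FPKM, 75 and 12 with a fold of 1.5 and 3, and 6 with FPKM summed over each gene, where only genes with a symbol enter. It was 23 with libraries centred on their median (22 of the 27 kept) and 20 with quantile normalization (18 kept). With 1 library left out it ran from 42 to 184, since fewer libraries have to meet the rule: 46, 48 and 127 without dark skin replicates 1, 2 and 3, and 42, 86 and 184 without white skin replicates 4, 5 and 6. The choice of the 27 members fixes the direction of their differences, so the alternatives say nothing about its stability. Of 270 recomputed differences, 28 moved by more than the spread between replicates, all of them with another pseudocount. The 2 limma calls were 11 without a filter, 1 with a mean FPKM of at least 1 and 28 without trend (16 higher and 12 lower in white skin). Without 1 library they ran from 1 to 7: 1 without dark skin replicate 2 or white skin replicate 6, 4 without dark skin replicate 3 and 7 without white skin replicate 5. The cause of these changes in limma calls was not tested.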
